A study of Mus musculus with 8 samples.

Results

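Perivascular and border macrophages are the macrophages of the brain that live outside the neural tissue itself, along penetrating vessels, in the meninges and in the choroid plexus. They sample fluid, clear debris and haem and present antigen, and they are told from microglia, the macrophages of the parenchyma, by scavenger receptors and lectins that microglia make at low levels. The genes described here are 10 such markers chosen by symbol, Mrc1, Cd163, Lyve1, F13a1, Pf4, Cbr2, Stab1, Ms4a7, Clec10a and Mgl2. All 10 were found in both gene tables, one of 54532 genes for the PTS + RS and RS groups and one of 28229 genes for the RGFP109 and NaCl vehicle groups.

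RNA-seq was analysed in 8 brain libraries of C57BL/6 mice taken on Day 21, with 2 libraries a group. The PTS + RS group had photothrombotic stroke (PTS), a light-induced cortical infarct, followed by restraint stress (RS), and the RS group had restraint stress alone, so that these groups differ by the stroke and the procedure that produced it. By the study's account, the RGFP109 and NaCl vehicle groups both had PTS + RS, and were treated with RGFP109 or with NaCl. The study calls RGFP109 an HDAC3 inhibitor and also describes it as selective for HDAC1 and HDAC3. It was given subcutaneously at 60 mg/kg once per day, for 2 weeks by the methods and for 21 days by a figure legend. The methods name DMSO and a cyclodextrin solution as its solvents, whereas the control is labelled NaCl. A difference in solvent, if there was one, cannot be told apart from the drug. All libraries of the PTS + RS and RS groups carry the label cortex, whereas in each of the RGFP109 and NaCl vehicle groups replicate 1 is labelled cortex and replicate 2 amygdala. The study used male mice, and the labels give no age. Its methods speak of pooled samples without saying whether a library holds 1 mouse or more, so the p-values measure the spread between these libraries.

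Each library held between 15902013 and 21712033 counts on genes. Markers of neighbouring structures differed between libraries. The summed level of 12 choroid plexus markers was 48.6 CPM (counts scaled to library size) in PTS + RS replicate 2, against 1650 CPM in PTS + RS replicate 1 and 1880 and 3920 CPM in the RS libraries. It was 1550 CPM in RGFP109 replicate 1 and between 15.9 and 47.6 CPM in the other 3 libraries of its table. Regional markers did not follow the tissue label in every library. NaCl vehicle replicate 1, labelled cortex, had 4.09 CPM of Fezf2, a gene of deep-layer cortical neurons, where the other 7 libraries had between 35.2 and 52.9 CPM. The same library held 626 CPM of Meis2, a gene of striatal and amygdala neurons, against at most 148 CPM elsewhere. In the libraries labelled amygdala the cortical genes summed to 791 and 709 CPM, more than in any library labelled cortex. The sum of 8 amygdala neuron genes was 240 CPM in each of them. It was 699 CPM in NaCl vehicle replicate 1 and 160 to 199 CPM in the other libraries labelled cortex. Fits without PTS + RS replicate 2 and without NaCl vehicle replicate 1 are given beside the results, and tissue is named below only as the label.

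The scavenger receptors of the list are Stab1 (stabilin-1, chr14:31139013-31168641, minus strand), Mrc1 (the mannose receptor CD206, chr2:14229392-14332057, plus strand) and Cd163, which takes up haemoglobin bound to haptoglobin (chr6:124304656-124330527, plus strand). Lyve1 binds hyaluronan and is also a marker of lymphatic endothelium (chr7:110850607-110863239, minus strand). Clec10a (chr11:70156197-70170834, plus strand) and Mgl2 (chr11:70130329-70137550, plus strand) are neighbouring lectins that bind galactose and its derivatives. F13a1 codes for the A subunit of coagulation factor XIII (chr13:36867178-37050244, minus strand), and Pf4 codes for a chemokine that platelets also store (chr5:90772435-90773383, plus strand). Cbr2 is a carbonyl reductase (chr11:120729489-120732114, minus strand), and Ms4a7 is a membrane protein with several membrane-spanning segments (chr19:11321039-11336146, minus strand). All coordinates are on GRCm38, where all 10 are annotated as protein-coding, and the coordinates are the same in GENCODE M21.

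Clec10a and Mgl2 are near-identical copies over part of their coding sequence, which is shown because it bears on how far their reads can be separated. The longest run of coding bases that both share letter for letter is 183 bases, spread over 3 exons, at chr11:70169822-70170189 in Clec10a and chr11:70136337-70136699 in Mgl2. It is printed from the GENCODE M21 transcripts on the plus strand in capitals, with 25 bases on either side in lower case.
Clec10a: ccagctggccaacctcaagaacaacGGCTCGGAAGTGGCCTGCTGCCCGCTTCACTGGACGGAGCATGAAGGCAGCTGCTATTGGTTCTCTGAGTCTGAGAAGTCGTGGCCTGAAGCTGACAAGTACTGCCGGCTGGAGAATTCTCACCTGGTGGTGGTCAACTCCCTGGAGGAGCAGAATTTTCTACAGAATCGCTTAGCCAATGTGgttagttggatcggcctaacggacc
Mgl2: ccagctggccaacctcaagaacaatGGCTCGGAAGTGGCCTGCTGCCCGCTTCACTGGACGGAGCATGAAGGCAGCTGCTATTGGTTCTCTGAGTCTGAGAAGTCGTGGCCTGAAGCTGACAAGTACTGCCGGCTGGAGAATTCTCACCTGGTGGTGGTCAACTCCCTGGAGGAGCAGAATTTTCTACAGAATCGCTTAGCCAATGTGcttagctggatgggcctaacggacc
Of all stretches of 100 bases in their transcripts, 2.64% of those of Clec10a were also found in Mgl2, and 3.95% of those of Mgl2 in Clec10a. A read lying wholly within shared sequence, together with its mate, cannot be assigned to either gene. The study's methods name paired-end reads longer than these stretches, and the share of reads affected was not measured. The low values of this pair are uncertain also because neither gene had more than 38 counts in a library. Cbr2 shared 5.37% of its 100-base stretches with the pseudogene Gm11771. Stab1 shared 0.114% with Nt5dc2, which overlaps it on the opposite strand, and F13a1 overlaps the antisense gene Gm30489 over 1.1% of its exonic bases. The strand setting of the counting is not given in the sources used here. F13a1, Mrc1, Cd163, Lyve1, Pf4 and Ms4a7 shared no 100-base stretch with another gene.

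Upstream sequences are shown for Stab1 and Ms4a7, which rose after stroke, and for Mrc1, the most widely used marker of the list. RefSeq windows on GRCm38.p6 were given for 8 of the 10 members, without Lyve1 and Clec10a, and the 250 bases before each start site were searched on both strands for GAGGAA, the core of the motif bound by PU.1, the transcription factor that macrophages and microglia depend on. Matches are in capitals, as GAGGAA or, on the other strand, TTCCTC.
Stab1, chr14:31168642-31168891, minus strand: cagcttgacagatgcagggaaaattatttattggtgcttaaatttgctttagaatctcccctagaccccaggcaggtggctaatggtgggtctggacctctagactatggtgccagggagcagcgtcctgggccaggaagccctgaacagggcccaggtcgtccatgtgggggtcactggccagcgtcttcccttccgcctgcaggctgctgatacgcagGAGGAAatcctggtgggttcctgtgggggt
Ms4a7, chr19:11336147-11336396, minus strand: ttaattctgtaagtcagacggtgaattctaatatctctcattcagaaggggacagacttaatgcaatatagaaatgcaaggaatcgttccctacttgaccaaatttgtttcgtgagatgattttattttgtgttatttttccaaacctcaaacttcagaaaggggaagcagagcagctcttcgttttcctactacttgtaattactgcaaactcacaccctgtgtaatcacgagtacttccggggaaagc
Mrc1, chr2:14229164-14229413, plus strand: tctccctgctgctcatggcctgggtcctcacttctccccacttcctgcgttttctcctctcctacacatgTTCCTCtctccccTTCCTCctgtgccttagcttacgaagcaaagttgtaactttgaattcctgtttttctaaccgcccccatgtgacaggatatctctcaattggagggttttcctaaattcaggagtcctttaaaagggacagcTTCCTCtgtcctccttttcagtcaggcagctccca
The letters stood once in the Stab1 window, beginning 30 bases before the start site, and 3 times in the Mrc1 window. Pf4, Mgl2, Cbr2 and 1 of the 2 F13a1 windows held 1 match each, whereas neither the Cd163 window nor the 2 Ms4a7 windows held one. Across all 32851 windows of this kind, 23.3% held the letters. The E-box CACGTG was found in no window of these genes and in 6.02% of all windows.

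Stab1 was the most abundant of the markers in every library. Levels between genes were compared as FPKM, the deposited count scaled to the length of the gene and the size of the library. Stab1 averaged 2.53 ± 0.127 FPKM in the RS group (SD, n = 2) and 11.4 ± 1.84 FPKM in the PTS + RS group. The next genes in the RS group were Mrc1 at 0.772 ± 0.115 FPKM, Cbr2 at 0.768 ± 0.0827 FPKM and Pf4 at 0.512 ± 0.353 FPKM, whose libraries overlapped. Lyve1, Mgl2 and Clec10a lay between 0.0946 and 0.188 FPKM in the RS libraries and were not separated either. Ms4a7 was the lowest of the 10 genes in both RS libraries, at 0.0246 and 0.0988 FPKM, and ranked 6 of 10 in both PTS + RS libraries, at 1.22 and 0.588 FPKM.

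**Figure D1:**
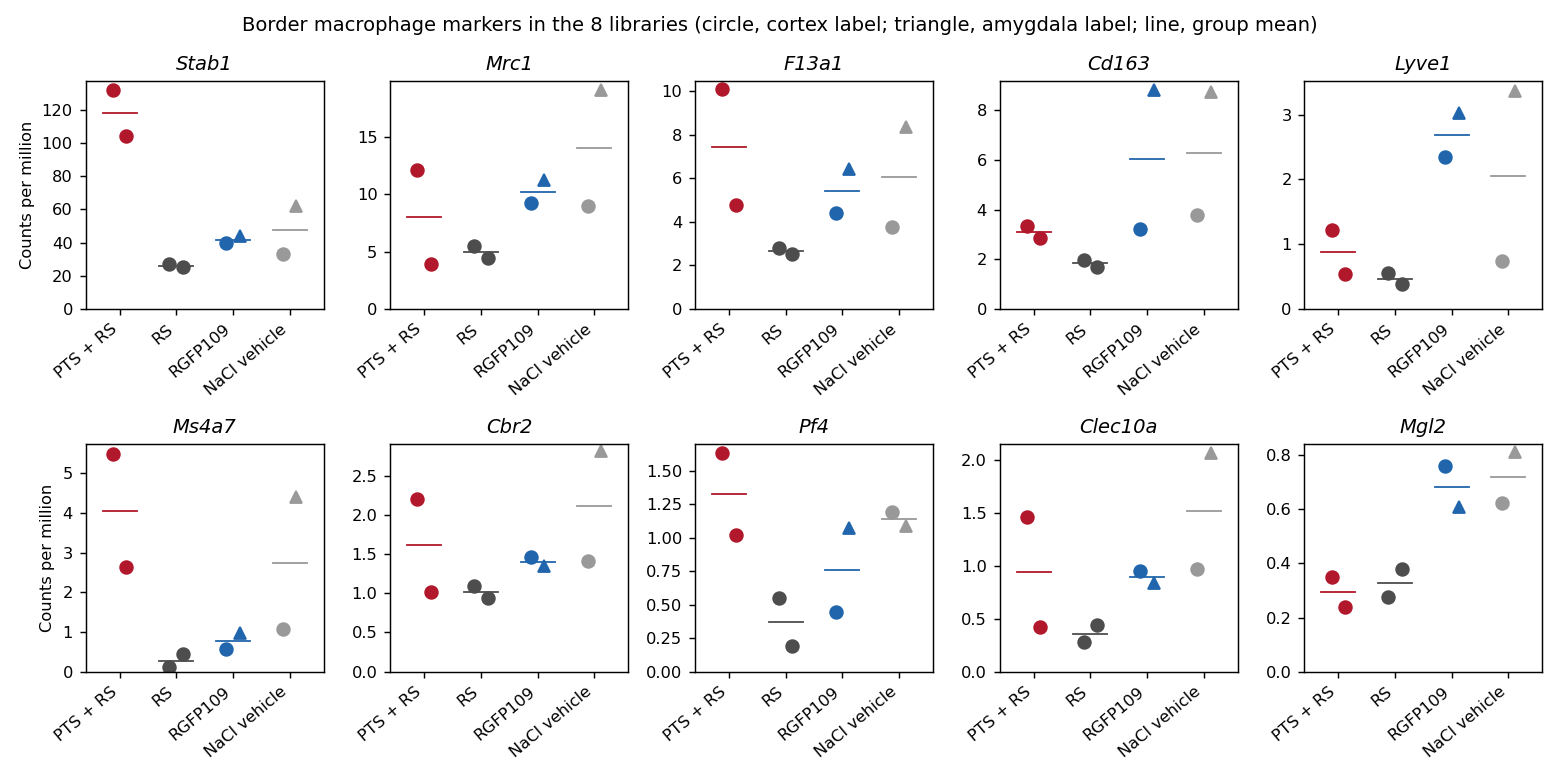
Level in CPM (vertical axis, linear, starting at 0) of the 10 markers in the 8 libraries by group. Each point is a library, circles carry the cortex label and triangles the amygdala label, and the horizontal line is the group mean. Stab1 and Ms4a7 are separated between PTS + RS and RS with a wide gap, while Mrc1, Cbr2, Lyve1, Clec10a and Mgl2 are not separated between these groups.

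Stab1 and Ms4a7 were the markers past the threshold for PTS + RS against RS. Stab1 was counted 2261 and 1738 times in the PTS + RS libraries and 492 and 399 times in the RS libraries. That is 118 ± 19.7 CPM against 26.1 ± 1.39 CPM, 4.5-fold higher, with both PTS + RS libraries far above both RS libraries (log2 fold change 2.17, SE 0.13, edgeR adjusted p = 0.00048). Ms4a7 was counted 94 and 44 times in the PTS + RS libraries and only 2 and 7 times in the RS libraries. Its level was 4.05 ± 2.01 CPM against 0.276 ± 0.234 CPM, a log2 fold change of 3.89 (SE 0.631, 95% limits 2.4 to 5.38, edgeR adjusted p = 0.022). Because the RS libraries held so few reads, the size of this rise is known less exactly than that of Stab1, and the call was lost under 4 of 13 alternatives (limma-voom adjusted p = 0.06, limma-trend on FPKM 0.1 and 0.059, edgeR on all 8 libraries 0.24). The fit of all 8 libraries also lost Stab1, with an edgeR adjusted p of 0.11. In bulk tissue, more cells of a type and more RNA per cell cannot be told apart.

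Of the 10 markers, 7 had enough counts to be tested, and these 2 passed the threshold, which asks for an adjusted p below 0.05 and a change of 1 or more on the log2 scale. In all, 2.12% of the 17581 tested genes passed it in this direction and 0.091% in the other, where no marker did. The libraries of the 2 groups did not overlap for 5 of the 7 tested markers, or 5 of the 10 listed, all with PTS + RS higher, where 25.7% of tested genes were separated in that direction and 24.5% in the other. The median log2 fold change of the 7 was 1.48, against 0 over all tested genes. Genes with low counts in the RS group reach the test only through the PTS + RS group, so the count without overlap and the median describe the tested genes and not the list.

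The remaining markers showed smaller or less even differences. F13a1 was counted 173 and 80 times in the PTS + RS libraries and 51 and 40 times in the RS libraries, so that the groups did not overlap. Its log2 fold change was 1.48 (SE 0.372, edgeR adjusted p = 0.089). It passed when DESeq2 was used (adjusted p = 0.015) and in the edgeR fit with the replicate number as a block (log2 fold change 1.41, adjusted p = 0.029). Pf4 was counted 28 and 17 times against 10 and 3 times, a log2 fold change of 1.79 (SE 0.59, edgeR adjusted p = 0.18). Cd163 was counted 57 and 48 times against 36 and 27 times, and its log2 fold change of 0.74 (SE 0.289) had an edgeR adjusted p of 0.24.

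Mrc1 and Cbr2 were not separated between the groups. Mrc1 was counted 208 and 66 times in the PTS + RS libraries and 99 and 70 times in the RS libraries. PTS + RS replicate 1 stood above both RS libraries and PTS + RS replicate 2 below both. The fitted log2 fold change was 0.7 (95% limits -0.41 to 1.81, edgeR adjusted p = 0.49). The value was -0.33 without PTS + RS replicate 1 and 1.29 without PTS + RS replicate 2, where it passed the threshold (edgeR adjusted p = 0.0021). In such a fit 1 library stands against 2, and the lone library is assumed to vary like those of the other group. Cbr2 behaved alike, with 38 and 17 counts against 20 and 15, a log2 fold change of 0.65 (95% limits -0.47 to 1.77) and a value of -0.02 without PTS + RS replicate 1.

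Lyve1, Clec10a and Mgl2 were too low to be tested. Lyve1 had 21 and 9 counts in the PTS + RS libraries and 10 and 6 in the RS libraries. Clec10a had 25 and 7 against 5 and 7, and Mgl2 had 6 and 4 against 5 and 6. For all 3 genes the libraries of the groups overlapped, so that no difference was detectable at this depth. With the limit lowered to 10 counts over the 4 libraries, a setting added after the data were seen, all 10 markers were fitted, the same 2 passed, and the median log2 fold change was 1.14.

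**Figure D2:**
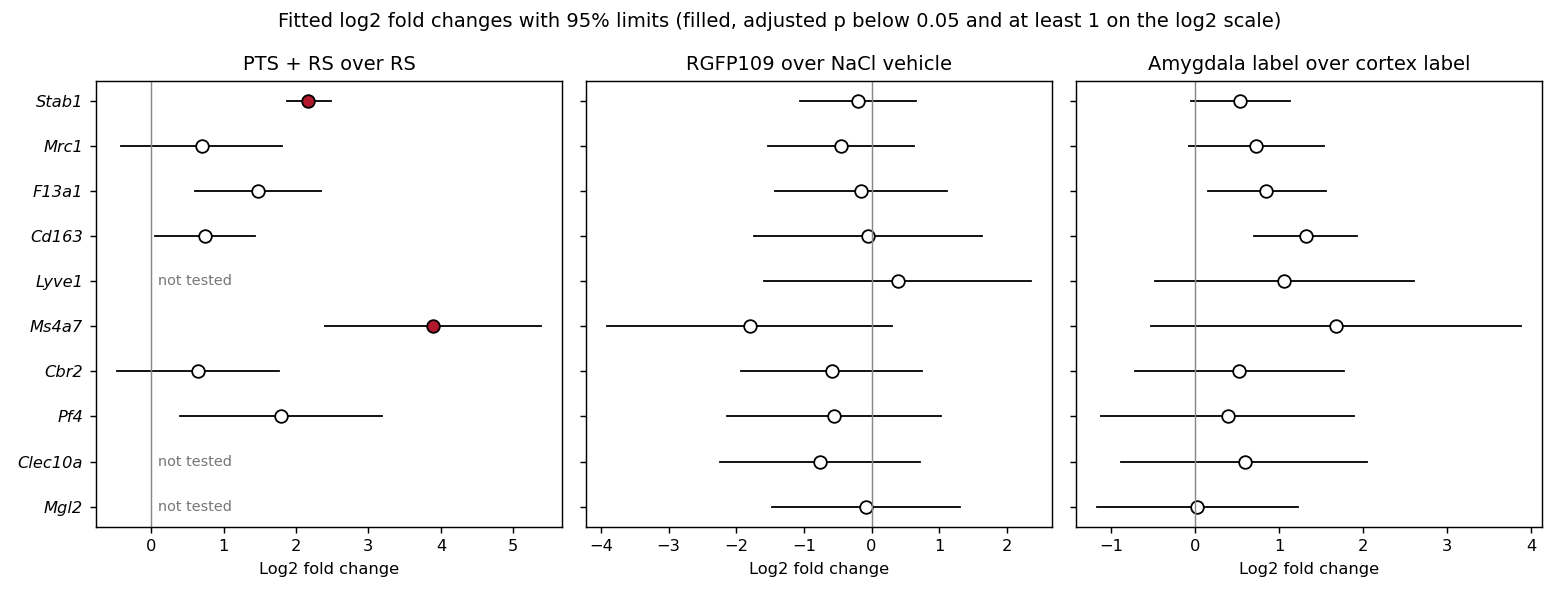
Fitted log2 fold changes (horizontal axis) of the markers in the 3 comparisons, with bars for the 95% limits. Lyve1, Clec10a and Mgl2 were not tested for PTS + RS against RS. Filled points passed the threshold. Stab1 at 2.17 and Ms4a7 at 3.89 are the filled points, and the limits of most markers in the other comparisons include 0.

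Most markers differed between the PTS + RS libraries. All 10 were lower in PTS + RS replicate 2 than in replicate 1, by 1.59 on the log2 scale for Mrc1, 1.55 for Clec10a, 1.06 for F13a1 and 1.03 for Ms4a7, but by only 0.34 for Stab1 and 0.2 for Cd163. In the RS group 7 of 10 were lower in replicate 2. The summed level of the 10 markers was 170 and 121 CPM in the PTS + RS libraries and 40.2 and 36.5 CPM in the RS libraries. Stab1 made up between 67.4% and 85.6% of these sums. Without it the sums were 37.9 and 17.4 CPM against 13.1 and 11.4 CPM. PTS + RS replicate 2 was also the library low in choroid plexus markers, and 11 markers of meningeal and perivascular fibroblasts summed to 115 CPM there, against 260 CPM in PTS + RS replicate 1 and 220 and 147 CPM in the RS libraries. Their part in the spread of the macrophage markers was not tested. Leaving out PTS + RS replicate 2 raised the count of markers past the threshold from 2 to 4, with F13a1 at a log2 fold change of 1.91 and Mrc1 at 1.29, and leaving out PTS + RS replicate 1 gave 2. The median over the tested markers was 1.91 and 0.84 in these fits.

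Stab1 and Ms4a7 rose together with other macrophage genes, some of which rose more and some less. All 13 genes made by macrophages in general passed the threshold, with a median log2 fold change of 2.61, from 1.97 for Aif1, the gene of Iba1, to 4.63 for Lyz2, which codes for lysozyme. Of 12 homeostatic microglia genes, 8 passed and all were higher (median 1.16), with the largest difference for Fcrls at 2.45. Of 10 genes of disease-associated microglia, 9 passed (median 3.61), led by Cst7, an inhibitor of cysteine proteases, at 8.09. The markers summed to 20.2 and 16.8 per 100 CPM of homeostatic microglia genes in the PTS + RS libraries and to 15.9 and 16.2 in the RS libraries. Without Stab1 these sums were 4.51 and 2.42 against 5.18 and 5.05. Per 100 CPM of the general macrophage genes, the sum of all 10 was 13.1 and 11.4 after stroke and 22.7 and 22.4 with RS alone, and without Stab1 it was 2.92 and 1.64 against 7.39 and 6.99. These ratios move with both lists, and their differences were not tested.

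A second list of 28 genes reported for border macrophages, written from general knowledge and sharing no gene with the 10, was likewise divided. Of its genes 18 were tested, 15 had positive log2 fold changes, and 5 passed, with a median of 0.72. The 5 were Siglec1, the sialic acid receptor CD169, at 4.32 (10.1 ± 1.36 CPM against 0.496 ± 0.0778 CPM, edgeR adjusted p = 0.00066), Ms4a6c at 3.84, Ms4a6d at 3.07, the fatty acid receptor Cd36 at 1.88 and Hpgd, which breaks down prostaglandins, at 1.44. Ms4a6c and Ms4a6d belong to the same family as Ms4a7. Cd38 was higher by 0.9 on the log2 scale with an edgeR adjusted p of 0.045, below the limit on fold change. Igfbp4 had the lowest value, -0.37 (edgeR adjusted p = 0.056). Folr2, often used together with Lyve1 to define resident border macrophages, had 0.913 ± 0.192 CPM against 0.394 ± 0.245 CPM (log2 fold change 1.23, edgeR adjusted p = 0.34). Cd209b and Cd209d, lectins of the same cells, were at 0 in all 4 libraries, and Cd209f was near 0 in both groups at 0.207 ± 0.0454 and 0.213 ± 0.145 CPM.

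**Figure D3:**
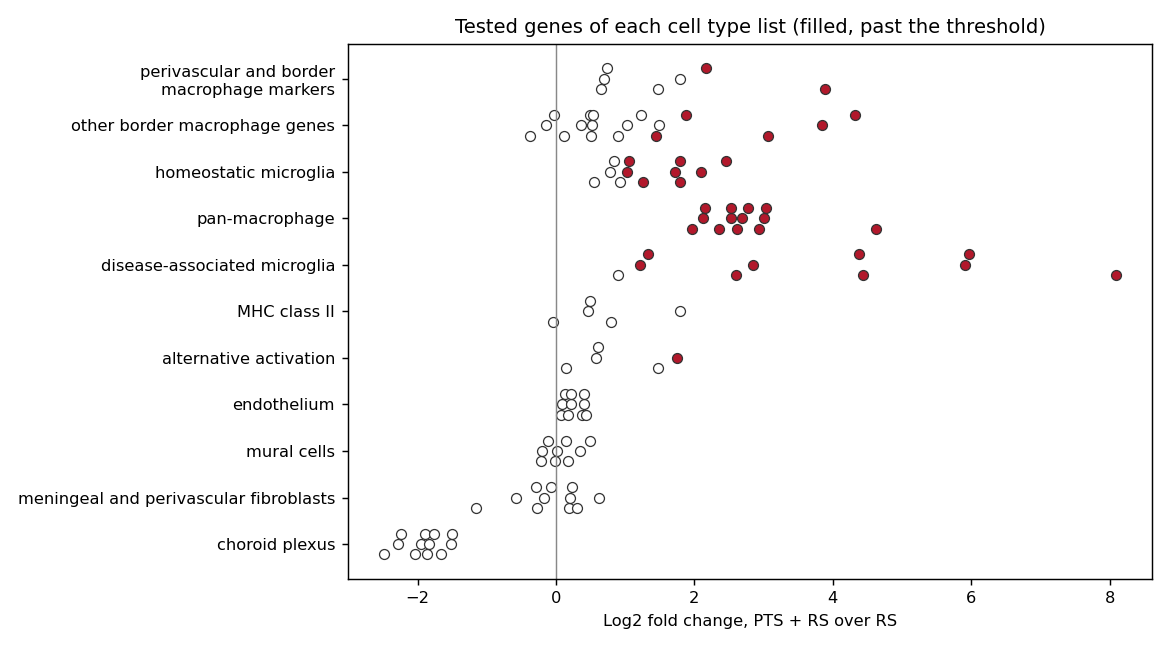
Log2 fold changes of PTS + RS over RS (horizontal axis) for the tested genes of 11 lists, one row a list and one point a gene, with filled points past the threshold. The 7 tested border macrophage markers lie between 0.65 and 3.89 with 2 filled, while all 13 general macrophage genes are filled and the choroid plexus genes all lie below 0 with none filled.

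Other cells that can make some of these markers were looked at in the same libraries. None of the 5 tested lymphatic endothelium genes passed the threshold (median 0.14), with values from -0.21 for Itga9 to 0.63 for Pdpn. Prox1, at a mean of 133 against 121 CPM, had most of the reads of this list, whereas Ccl21a, a chemokine of lymphatic vessels, was at 0 in all 4 libraries and Mmrn1 averaged 0.0299 CPM against 0. Of the platelet genes 3 of 10 were tested and none passed (median -0.01), from Gp1ba at -0.59 to Gp5 at 0.69. All 10 endothelial genes had positive log2 fold changes, none passed, and their median was 0.22, from Cldn5 at 0.07 to Abcb1a at 0.44. The 11 fibroblast genes had a median of -0.07 with none past the threshold, from Igf2 at -1.16 to Col3a1 at 0.62. All 12 choroid plexus genes had negative values without passing it (median -1.87), from Clic6 at -2.48 to Kl at -1.5. The mural cell genes ran from Kcnj8 at -0.22 to Rgs5 at 0.49 with none past the threshold. Of 8 astrocyte genes 2 passed (median 0.59), from Aldh1l1 at 0.16 to Gfap at 2.27. No gene of the neuron list (Rbfox3 at -0.25 to Stmn2 at 0.06), the erythrocyte list (Hbb-bs at -0.64 to Alas2 at 0.76) or the dendritic cell list (Flt3 at -0.57 to Batf3 at 1.14) passed. Csf3r, the only neutrophil gene with counts enough for a test, rose by 2.24 on the log2 scale. The defining neutrophil genes Ly6g and Retnlg were at 0 in all 4 libraries. S100a8 and S100a9 were near 0 in both groups, at means of 0.0874 against 0.0315 CPM and 0.147 against 0.0275 CPM. None of 8 monocyte genes had counts enough for a test. Their sums were 2.8 and 2.27 CPM in the PTS + RS libraries and 1.1 and 0.504 CPM in the RS libraries, and all 8 had a higher mean in the PTS + RS group. Of their defining genes, Ccr2 stood at 0.932 and 0.538 CPM against 0.275 and 0.126 CPM and Ly6c2 at 0.0583 and 0.478 CPM against 0 and 0.063 CPM.

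Functions linked to border macrophages were read from lists of their own. None of 5 genes of MHC class II antigen presentation passed the threshold, and 3 of 5 were higher in PTS + RS without overlap (median 0.49), where 25.7% of all tested genes were. The largest difference among them was that of H2-Ab1, at 4.29 ± 2.01 CPM against 1.24 ± 0.201 CPM (log2 fold change 1.79, edgeR adjusted p = 0.069). Of 10 genes of alternative activation, the response to IL-4 with which Mrc1, Clec10a and Mgl2 are also associated, 5 were tested. Il4ra, a chain of the IL-4 receptor, rose by 1.75 on the log2 scale (edgeR adjusted p = 0.0089), and the other 4 did not pass. All 5 tested genes, of 10 listed, were higher without overlap (median 0.61), where 25.7% of all tested genes were, Socs2 by only 0.14. As with the markers, genes with low counts in the RS group reach the test only through the PTS + RS group. Among the untested genes, Retnla and Il10 were at 0 in both groups. Chil3 had a mean of 0.147 against 0.0275 CPM, Irf4 0.47 against 0.181 CPM and Ccl22 0.176 against 0.268 CPM.

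RGFP109 was not followed by a change in any of the 10 markers that exceeded the spread between libraries. All 10 were tested against NaCl vehicle and none passed, as 0% of the 17565 tested genes passed in either direction by edgeR. At an unadjusted p below 0.05 there were 88 genes higher and 118 lower, and DESeq2 and limma-voom also called 0. The fitted value was negative for 9 of 10 markers, with a median log2 fold change of -0.32 against -0.02 over all genes. Libraries did not overlap for 3 markers, all with RGFP109 lower, where 13.8% of tested genes were separated in that direction and 12.9% in the other. The cortex-labelled libraries of these groups lacked the high macrophage levels of the PTS + RS libraries. The 13 general macrophage genes summed to 214 CPM (RGFP109) and 176 CPM (NaCl vehicle), against 1300 and 1070 CPM with PTS + RS and 177 and 163 CPM with RS. Stab1 stood at 39.6 and 33.3 CPM, against 132 and 104 CPM with PTS + RS. The reason was not tested.

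Ms4a7 had the largest difference, with 9 and 21 counts in the RGFP109 libraries and 19 and 81 in the NaCl vehicle libraries. It was lower with RGFP109 in both replicates, yet NaCl vehicle replicate 2 alone carried most of the counts, and the log2 fold change of -1.8 had 95% limits from -3.91 to 0.31. Clec10a, with 15 and 18 counts against 17 and 38, had a log2 fold change of -0.76 (95% limits -2.24 to 0.72). Pf4 was counted 7 and 23 times against 21 and 20 times, with a log2 fold change of -0.56 (95% limits -2.14 to 1.02). For all 10 markers the edgeR adjusted p was 1.

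The 2 scavenger receptors with most reads were close in level between the treatments. Stab1 was counted 625 and 937 times with RGFP109 and 586 and 1146 times with NaCl vehicle, and its log2 fold change was -0.2 (95% limits -1.06 to 0.66). Mrc1 was counted 146 and 241 times against 158 and 351 times, with a log2 fold change of -0.45 (95% limits -1.53 to 0.63). In both genes the NaCl vehicle libraries lay on either side of the RGFP109 libraries. Cd163, at 51 and 189 counts against 67 and 161, differed least, with a log2 fold change of -0.05 but limits from -1.74 to 1.63. Lyve1 alone had a positive value, 0.39, from 37 and 65 counts against 13 and 62. F13a1 was counted 70 and 138 times against 66 and 154 times, a log2 fold change of -0.15. Cbr2 had 23 and 29 counts against 25 and 52, with both RGFP109 libraries at or near the lower NaCl vehicle library in CPM, and a log2 fold change of -0.59. Mgl2 had 12 and 13 counts against 11 and 15, too few to show a small difference, and a value of -0.08. These limits do not show that the drug left the markers as they were, since a log2 fold change of -2 lay within those of Ms4a7, Clec10a and Pf4.

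The direction rested on NaCl vehicle replicate 2, the library labelled amygdala. Within replicate 1 the median log2 ratio of RGFP109 over NaCl vehicle was 0.04, with 6 of 10 markers positive, and within replicate 2 it was -0.44, with 9 of 10 negative. Without NaCl vehicle replicate 2 the fitted median turned to 0.17. In that fit 93 genes passed the threshold, none of them a marker. Without NaCl vehicle replicate 1, the cortex-labelled library with low Fezf2 and high Meis2, the median was -0.6 and 0 of 10 markers were positive. NaCl vehicle replicate 2 held the highest level of 8 of the 10 markers in its table, and the sum of the 10 was 113 CPM there, against 55.8 CPM in NaCl vehicle replicate 1 and 63 and 78.1 CPM in the RGFP109 libraries. The same library held 437 CPM of 5 erythrocyte genes, against 12.9 CPM in NaCl vehicle replicate 1 and 1.65 and 127 CPM in the RGFP109 libraries. It also held the most fibroblast marker RNA, 394 CPM against 212 to 272 CPM, and the most MHC class II RNA, 86.5 CPM against 19.9 to 32.5 CPM. The part of these in the marker levels was not tested.

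**Figure D4:**
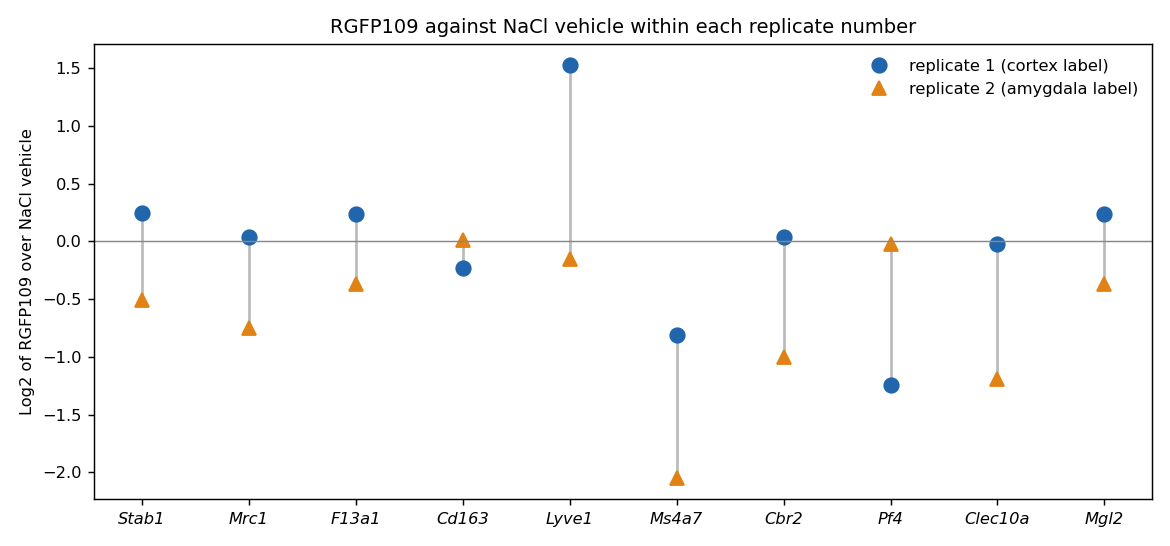
Log2 ratio of RGFP109 over NaCl vehicle (vertical axis) for each marker within replicate 1 (circles, cortex label) and within replicate 2 (triangles, amygdala label). Circles lie near or above 0 for all markers but Ms4a7, Pf4 and Cd163, and triangles lie below 0 for all but Cd163, with Ms4a7 at -0.81 and -2.05 below 0 in both.

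Genes of other lists showed no change past the threshold with RGFP109 either. Of the second border macrophage list 4 of 18 tested genes were positive (median -0.29), from Ms4a6d at -1.27 to Ccr1 at 0.58. Of the 12 homeostatic microglia genes 11 were positive (median 0.13), and the exception was Sall1 at -2.05, which stood at 208 CPM in NaCl vehicle replicate 1. All 5 MHC class II genes were negative (median -1.14), with H2-Ab1 at 3.39 ± 0.224 CPM against 10 ± 7.81 CPM. The 13 general macrophage genes had a median of -0.23, and none of these values exceeded the spread between libraries.

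No marker differed past the threshold between the libraries labelled amygdala and those labelled cortex. All 10 had a positive log2 fold change (median 0.66 against -0.03 over all genes), and 5 of them did not overlap between the labels, where 21.6% of tested genes were higher without overlap and 22.4% lower. By edgeR 0% of genes passed in either direction, although 1197 genes were higher and 773 lower at an unadjusted p below 0.05. DESeq2 called 267 higher and 82 lower. Each label holds 1 RGFP109 and 1 NaCl vehicle library, and in these groups the label cannot be told apart from the replicate number.

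Cd163 differed most evenly. It stood at 8.82 and 8.74 CPM in the libraries labelled amygdala and at 3.23 and 3.8 CPM in those labelled cortex, 2.5-fold higher (log2 fold change 1.32, SE 0.236, edgeR adjusted p = 0.26). DESeq2 gave an adjusted p of 0.022 for it. F13a1 (6.44 and 8.36 CPM against 4.43 and 3.75 CPM), Mrc1, Stab1 and Lyve1 were the other 4 markers without overlap, with log2 fold changes of 0.85, 0.73, 0.54 and 1.06. Pf4, Cbr2, Ms4a7, Clec10a and Mgl2 overlapped. NaCl vehicle replicate 1 and RGFP109 replicate 1, labelled cortex, differed from each other in regional markers. Without RGFP109 replicate 1 the log2 fold changes of Cd163 and Lyve1 passed at 1.21 and 2.11, and without NaCl vehicle replicate 1 those of Cd163 and Ms4a7 passed at 1.45 and 2.22 by edgeR. In these fits, where again 1 library stands against 2, 2512 and 1141 genes passed in all. Without NaCl vehicle replicate 2 the median of the markers was 0.3 and 3 of 10 were negative.

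All 13 general macrophage genes and all 10 disease-associated microglia genes had positive log2 fold changes for the amygdala label, with none past the threshold. Their medians were 1.36 and 2.18, against -0.03 over all genes. The 13 genes summed to 489 and 874 CPM under the amygdala label and 214 and 176 CPM under the cortex label, where RS libraries held 177 and 163 CPM. Of 8 cortical neuron genes 7 were positive too (median 0.56), and of 8 amygdala neuron genes 5 were negative (median -0.27). These differences are therefore given for the label and not for a region. The second border macrophage list was divided, with 11 of 18 positive (median 0.39), from Ednrb at -0.78 to Ms4a6d at 2.75. Erythrocyte genes had a median of 5.35 and choroid plexus genes one of -3.52. The 9 tested mural cell genes were all negative (median -0.4).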

How the data were processed

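RNA was extracted with Trizol. The labels name a directional NEBNext Ultra kit, whereas the study's methods name a Nugen Ovation kit. Per the labels, the authors used STAR 2.4.0, HTSeq 0.6.1, limma and the build GRCm38 (mm10). The authors deposited unnormalized counts per gene and FPKM for each library in 2 tables, of which the RGFP109 table was matched by symbol. Their own fold changes, p-values and normalized group values were not used.

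Counts were analysed in R 4.3.3 with edgeR 4.0.16 (filterByExpr, TMM, quasi-likelihood test, Benjamini-Hochberg adjustment over every gene tested). The 95% limits come from the same fit. CPM are scaled to the TMM library size. For ratios of 1 library to another, 2 was added as a prior count. Counts of replicates varied beyond sampling error, and the test was checked on simulated counts. With 2 libraries a group no permutation test can reach a p of 0.05.

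The 10 markers and the 21 other lists were drawn up from textbook knowledge with earlier results of these data known. All 10 markers were described in every comparison, and the rule for each other list was to name the tested genes with the largest rise and fall, with defining markers near 0. It was followed for most lists in PTS + RS against RS and for fewer in the other comparisons. Some lists are not reported here. Other genes, such as Cd38, Folr2 and those past the threshold, were named after their values were seen. Alternatives were DESeq2 1.42.0, limma 3.58.1 (voom on counts, trend on log2 FPKM with a pseudocount of 1 or 0.1), RLE size factors, no filter, all 8 libraries in 1 fit, a replicate block, and each library left out. In the RGFP109 table a shared replicate number is also a shared tissue label (correlation of deviations 0.3). In the other table the correlation was 0.04.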

Additional observations from a re-analysis of the deposited data

Results flagged for a closer look

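For 7 of the 10 markers the log2 ratio of RGFP109 over NaCl vehicle had opposite signs within replicate 1, labelled cortex, and within replicate 2, labelled amygdala. Each side rests on 1 library a group, so the difference between them was not tested. Mrc1 had 0.04 within replicate 1 and -0.75 within replicate 2, and Cbr2 had 0.04 and -1. The values were 1.53 and -0.15 for Lyve1, and 0.25 and -0.51 for Stab1. F13a1 and Mgl2 had 0.24 within replicate 1 and -0.37 within replicate 2. Cd163 alone went the other way, with -0.23 within replicate 1 and 0.01 within replicate 2. Several of these values are close to 0, and a sign there is not a direction.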

How the results depend on the processing

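Stab1 stayed past the threshold for PTS + RS against RS under 12 of 13 alternatives, with a log2 fold change between 1.8 and 2.33. It was lost when all 8 libraries shared 1 estimate of the spread, a fit that called 0 genes and 0 markers (2.15, edgeR adjusted p = 0.11). The cause was not tested. Ms4a7 was lost in that fit, with limma-voom, and with limma-trend on FPKM at either pseudocount, which each left 1 marker. The number of genes past the threshold was 200 with limma-trend at a pseudocount of 1, where the median of the markers was 0.56, and 759 (604 higher and 155 lower) without a filter, where 4 markers passed. Leaving out 1 library gave 323 to 740 genes, 2 to 4 markers and a median of 0.84 to 1.91. The replicate block gave 3 markers, 443 genes higher and 32 lower, and a median of 1.41, and in the RGFP109 comparison 0 genes, 0 markers and a median of -0.25. In the PTS + RS table the numbers share no animal or batch that is stated. The block gained F13a1 and changed the call of no other marker.

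For RGFP109, leaving out 1 library gave 0 to 93 genes, 0 markers and medians from -0.6 to 0.17. Single markers crossed 0 in these fits: Mrc1 ran from -0.9 to 0.2, Cd163 from -0.96 to 0.68, Lyve1 from -0.33 to 1.87, F13a1 from -0.62 to 0.55, Stab1 from -0.58 to 0.33 and Mgl2 from -0.26 to 0.13. After stroke Mrc1 ran from -0.33 to 1.29 and Cbr2 from -0.02 to 1.1.

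For the tissue labels, DESeq2 called 349 genes and 1 marker, edgeR without a filter 13 genes, and limma-trend 1 gene at either pseudocount. Leaving out 1 library gave 0 to 2512 genes and 0 to 2 markers, with Pf4 from -0.14 to 1.28, Cbr2 from -0.07 to 0.98, Clec10a from -0.17 to 1.11 and Mgl2 from -0.17 to 0.24. Depth limits Lyve1, Cbr2, Clec10a, Mgl2 and Pf4 most, which had at most 65 counts in any library.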
